A study of Mus musculus with 6 samples.

Results

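The genes described here are 8 that mark or specify subtypes of retinal ganglion cells (RGCs), the neurons whose axons form the optic nerve. They are Eomes, Opn4, Tbx20, Jam2, Satb1, Tbr1, Foxp1 and Foxp2. They were chosen by their names, with earlier results of these data known, and all 8 were found among the 24060 genes of the count table. RNA was sequenced from 3 samples of RGCs taken from C57BL/6 mouse embryos at embryonic day 18 (E18) and from 3 samples taken from C57BL/6 pups at postnatal day 5 (P5). The labels name no mutation and no treatment in either group, and they do not say how many animals went into a sample. At both ages retinas were dissociated with papain, macrophages were removed with antibodies, and the RGCs were then captured on plates coated with an antibody to CD90, the surface protein encoded by Thy1. The study compared the ages because RGCs extend axons readily in the embryo and lose this ability soon after birth. The labels number the E18 samples as replicates 1, 3 and 4 and the P5 samples as replicates 6, 8 and 9. The name of the count column used for E18 replicate 1 holds a 2 and a 5 as well, so that this column may be a pool of embryonic samples. No label says that the samples came from separate litters, so a p-value measures only the spread between these samples.

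RGCs fall into many subtypes that differ in the shape of their dendrites, in their targets in the brain and in the visual feature they report. Subtypes are set up by transcription factors that act after the general RGC program has begun. Eomes, a T-box factor also called Tbr2, is needed for the intrinsically photosensitive RGCs (ipRGCs), which detect light directly through melanopsin, the photopigment encoded by Opn4. Tbx20 is a T-box factor found in a subset of the ipRGCs. Tbr1 is a T-box factor of several RGC subtypes, among them the cells marked by the adhesion molecule Jam2 (junctional adhesion molecule 2), which respond to upward motion. Satb1, a chromatin organizer, acts in direction-selective RGCs, and the forkhead factors Foxp1 and Foxp2 mark the small F-type RGCs.

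In mm10, Eomes lies on the plus strand of chromosome 9 at 118478212-118486132, and Tbx20 on the minus strand of the same chromosome at 24718138-24774303. Opn4 lies on the minus strand of chromosome 14 at 34590618-34600142, and Tbr1 on the plus strand of chromosome 2 at 61802930-61814114. Satb1 lies on the minus strand of chromosome 17 at 51736187-51833290, and Jam2 on the plus strand of chromosome 16 at 84774123-84825928. Foxp1 on the minus strand and Foxp2 on the plus strand share chromosome 6, at 98925338-99522721 and 14901349-15441977. The RefSeq promoter table held entries for 6 of the 8 genes and none for Foxp2 and Jam2. The 250 bases before the start site are shown for Eomes, Opn4 and Tbx20, which are the ipRGC genes described together below, and for Tbr1, a T-box relative that was not called. They are genomic sequence of GRCm38.p6 in the direction of transcription, from chr9:118477939-118478188 on the plus strand (Eomes), chr14:34600143-34600392 on the minus strand (Opn4), chr9:24774304-24774553 on the minus strand (Tbx20) and chr2:61804203-61804452 on the plus strand (Tbr1). Gene coordinates are from GENCODE and start sites from RefSeq, so the Tbr1 window lies within the coordinates given for Tbr1. Capitals mark matches to the letters searched.
Eomes: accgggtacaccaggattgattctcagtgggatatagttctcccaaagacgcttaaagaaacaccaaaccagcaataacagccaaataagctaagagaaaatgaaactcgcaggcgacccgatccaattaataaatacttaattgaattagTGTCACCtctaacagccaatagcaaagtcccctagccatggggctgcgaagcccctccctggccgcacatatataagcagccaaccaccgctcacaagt
Opn4: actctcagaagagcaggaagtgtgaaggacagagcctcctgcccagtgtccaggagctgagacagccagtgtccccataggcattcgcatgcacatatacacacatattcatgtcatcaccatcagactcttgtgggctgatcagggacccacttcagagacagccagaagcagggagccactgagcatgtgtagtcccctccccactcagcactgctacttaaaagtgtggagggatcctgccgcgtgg
Tbx20: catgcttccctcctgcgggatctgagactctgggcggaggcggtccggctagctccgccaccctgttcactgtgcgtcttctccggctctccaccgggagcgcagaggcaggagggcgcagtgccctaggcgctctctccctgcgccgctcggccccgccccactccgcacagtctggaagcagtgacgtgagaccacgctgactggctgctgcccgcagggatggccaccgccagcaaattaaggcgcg
Tbr1: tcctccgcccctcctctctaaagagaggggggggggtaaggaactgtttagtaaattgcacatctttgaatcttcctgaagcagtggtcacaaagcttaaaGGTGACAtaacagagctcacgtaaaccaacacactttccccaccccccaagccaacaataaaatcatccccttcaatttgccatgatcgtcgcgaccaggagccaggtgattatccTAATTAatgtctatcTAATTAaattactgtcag

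The letters searched, on both strands, were the T-box half-site GGTGTGA, its second form GGTGACA, and the homeodomain core TAATTA, which reads the same on both strands and matches the sites of Brn3-type and many other homeodomain factors. None of these letter strings contains another. The Eomes window held 1 match to GGTGACA, on the minus strand, 99 to 93 bases before the start. The Tbr1 window held GGTGACA on the plus strand, 149 to 143 bases before the start, and TAATTA at 33 to 28 and at 18 to 13 bases before it. The Opn4 and Tbx20 windows held none of the 3. Satb1 and Foxp1 have several windows each, which are not shown. Among these, GGTGACA lay 214 to 208 bases before a start of Satb1 and 233 to 227 before a start of Foxp1. TAATTA lay 240 to 235 bases before another start of Foxp1. Over all 32851 promoter windows of this length, from 27025 genes, 3.33% held GGTGTGA, 4.46% held GGTGACA and 4.84% held TAATTA. A match describes the letters in the window and says nothing about binding.

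The total count on genes was 81213639 to 114512853 reads, and the 8 genes had 429 to 15558 reads each in a sample. The pan-RGC gene Rbpms lay at 276 to 320 CPM at E18 (CPM is a gene's count relative to the TMM-scaled size of its library) and 291 to 329 at P5, and 15 RGC marker genes summed to 10328 to 11848 CPM at E18 and 10400 to 11526 at P5. Of these 15, 6 were higher at P5 (22.5% of all genes tested), 4 were higher at E18 (20.8%) and 5 were not called. Those higher at P5 included Slc17a6 (log2 fold change of E18 over P5 -1.40), Nefh (-1.89) and Rbpms2 (-0.50). Those higher at E18 were Isl1 (1.102), Gap43 (0.51), Tubb3 (0.49) and Sncg (0.40). Thy1, the gene of the capture antigen, was higher at P5, with a log2 fold change of E18 over P5 of -1.16 (SE 0.189, adjusted p = 0.00197; unless another test is named, adjusted p-values are from the quasi-likelihood fit of edgeR over all genes tested). The E18 samples differed among themselves in genes of other cells. The sum of 10 genes of dividing cells was 234, 68.0 and 24.6 CPM in E18 replicates 1, 3 and 4 and 16.6 to 30.2 at P5, and the amacrine factor Tfap2b stood at 47.5, 119 and 1.62 CPM at E18 and 1.02 to 1.55 at P5. Calls among the 8 genes and the related lists that were lost with E18 replicate 4 as the only embryonic sample are therefore given as well, in a fit where that sample is assumed to vary like the P5 samples. That fit rests on fewer samples, so a lost call there does not show a smaller change. In bulk RNA, fewer cells of a subtype cannot be told apart from less RNA of the gene per cell.

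Of the 8 genes, 5 were higher at P5, none was higher at E18 and 3 did not pass the test. Eomes, Opn4, Tbx20 and Jam2 were each more than 3-fold higher at P5, Satb1 was 1.47-fold higher, and Tbr1, Foxp1 and Foxp2 differed by less than the spread between samples. All 8 passed the filter on low counts and were among the 16449 genes tested, of which 43.4% were called at an adjusted p under 0.05, 22.5% as higher at P5 and 20.8% as higher at E18. Calls higher at P5 were 52.0% of all calls, and 39.0% when libraries were scaled to equal Rbpms, a scaling that changed neither direction nor call of the 8 genes. The share of tested genes called and at least 2-fold higher at P5 was 9.53%, against 4 of these 8. The ranges of the 2 ages did not overlap for 5 of the 8 genes, against 56.1% of all genes tested. The median log2 fold change of E18 over P5 was -1.12 over the 8 genes and 0.0047 over all genes tested.

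**Figure D1:**
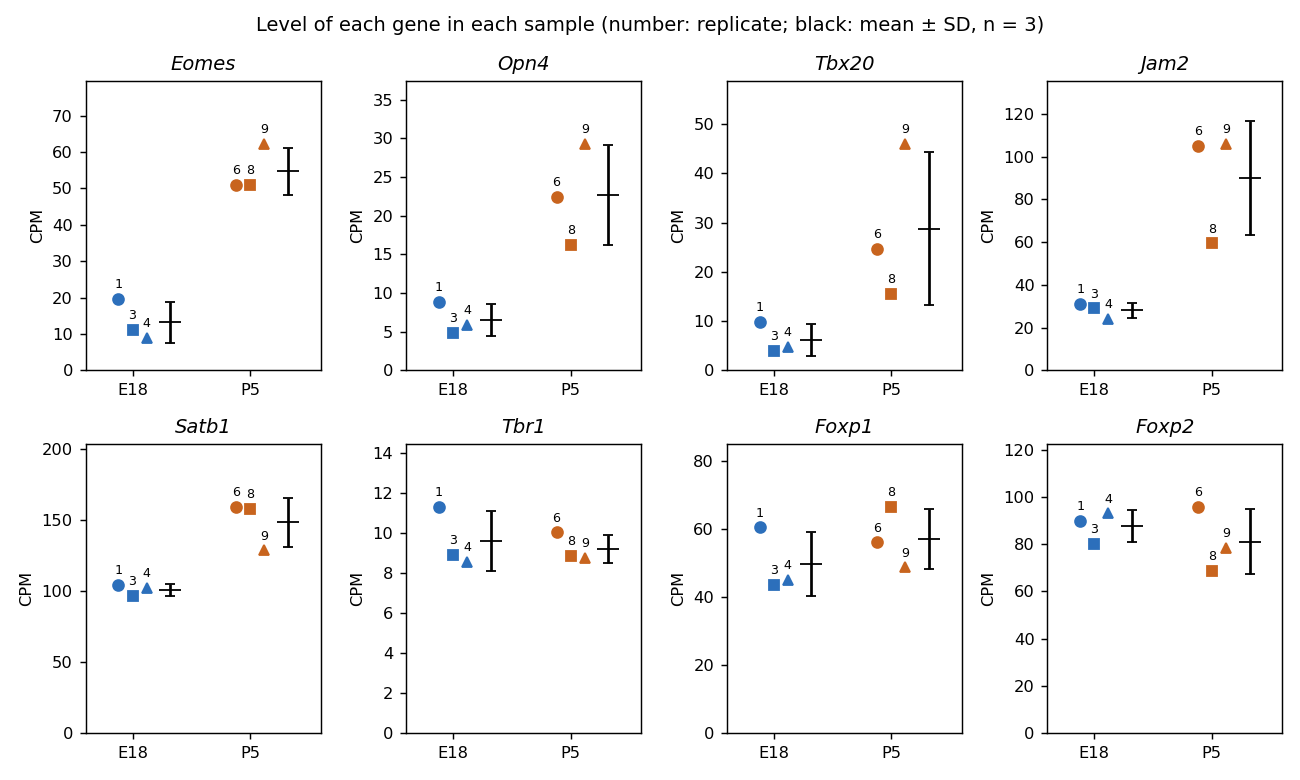
Level of each of the 8 genes in each sample, in CPM (vertical axes start at 0), for E18 (blue) and P5 (orange), with the replicate number above each point and the mean ± SD in black (n = 3). For Eomes, Opn4, Tbx20, Jam2 and Satb1 every P5 sample lies above every E18 sample, and for Tbr1, Foxp1 and Foxp2 the ages overlap.

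The ipRGC genes rose together from E18 to P5. Eomes (ENSMUSG00000032446.14) was at 19.5, 11.2 and 8.85 CPM in E18 replicates 1, 3 and 4 and at 50.9, 51.0 and 62.2 CPM in P5 replicates 6, 8 and 9. The lowest P5 sample thus lay well above the highest E18 sample, which was replicate 1. The mean was 13.2 ± 5.61 CPM in the embryo and 54.7 ± 6.48 CPM after birth (SD, n = 3), a 4.15-fold higher level at P5 (95% interval 2.74 to 6.30). The log2 fold change of E18 over P5 was -2.05 (SE 0.264, adjusted p = 0.000782).

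Opn4 (ENSMUSG00000021799.9) was at 8.87, 4.77 and 5.84 CPM at E18 and at 22.5, 16.2 and 29.2 CPM at P5. The ages did not overlap, and again replicate 1 was the highest embryonic sample. The means were 6.50 ± 2.13 and 22.6 ± 6.50 CPM (SD, n = 3), 3.49-fold higher at P5 (95% interval 2.27 to 5.36), with a log2 fold change of -1.80 (SE 0.272, adjusted p = 0.00144). Melanopsin RNA was therefore already counted in every embryonic sample, with 736, 535 and 529 reads.

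Tbx20 (ENSMUSG00000031965.15) was at 9.90, 3.87 and 4.74 CPM at E18 and at 24.7, 15.6 and 45.9 CPM at P5. Relative to its mean it varied more between P5 samples than any other of the 8 genes, and replicate 9 had nearly 3 times the level of replicate 8. The means were 6.17 ± 3.26 and 28.7 ± 15.6 CPM (SD, n = 3), 4.67-fold higher at P5 (95% interval 2.31 to 9.46), with a log2 fold change of -2.22 (SE 0.448, adjusted p = 0.00496).

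Within an age, some samples were high for several of the genes. E18 replicate 1 was the highest embryonic sample for 7 of the 8 genes, all but Foxp2, and stood furthest out for the ipRGC genes, by 0.63 (Eomes), 0.46 (Opn4) and 0.75 (Tbx20) on the log2 scale above the mean of its age. At P5, replicate 9 was the highest for the same 3 genes, by 0.19, 0.40 and 0.80, and also for Jam2, by 0.28. Replicate 8 was the lowest at P5 for Opn4 (-0.43) and Tbx20 (-0.73) and also for Jam2 (-0.55), whereas the lowest for Eomes was replicate 6 (-0.097). E18 replicate 1 was also the sample with the most RNA of dividing cells, and the part of this in the result was not tested. Without that replicate the log2 fold changes were -2.44 (Eomes), -2.09 (Opn4) and -2.73 (Tbx20), and with E18 replicate 4 alone they were -2.62, -1.94 and -2.59 (adjusted p = 0.000721, 0.0076 and 0.0129).

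**Figure D2:**
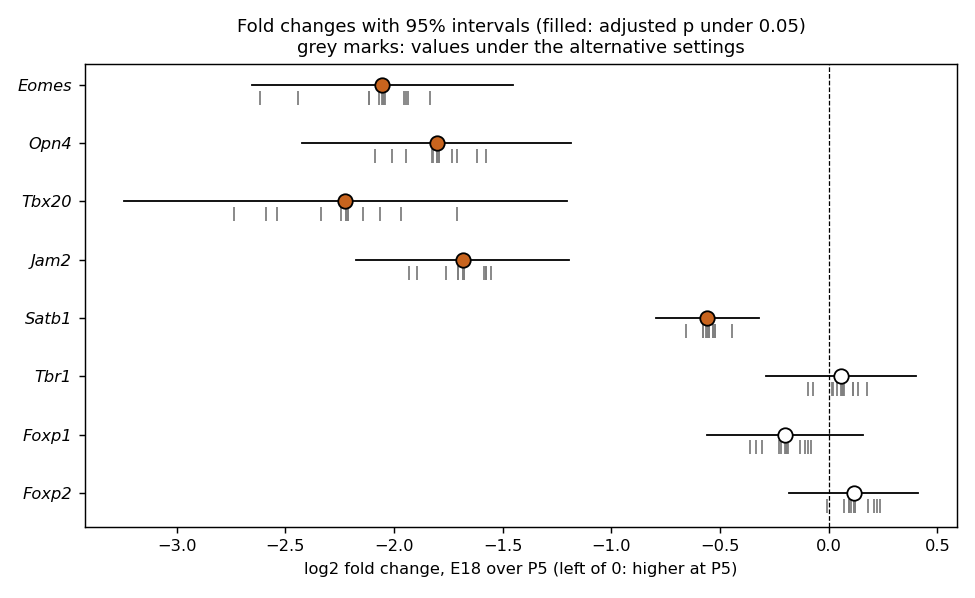
Log2 fold change of E18 over P5 for each gene (horizontal axis, values left of 0 are higher at P5), with its 95% interval as a line; filled points passed an adjusted p of 0.05, and grey marks are the values under the 14 alternative settings. Eomes, Opn4, Tbx20 and Jam2 lie between -2.22 and -1.68 and Satb1 at -0.56, while the intervals of Tbr1, Foxp1 and Foxp2 include 0.

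The genes through which melanopsin signals were examined next. Melanopsin couples to G proteins of the Gq class, which act through a phospholipase C beta to open TRPC channels. Of 12 genes of melanopsin signalling and of ipRGCs, 8 were higher at P5, 0 were higher at E18 and 4 were not called, where 22.5% of all genes tested were higher at P5 and 20.8% at E18. Their log2 fold changes had -0.75 as the median. Trpc6, a subunit of the light-gated channels, was at 4.32, 5.07 and 4.46 CPM at E18 and at 14.1, 19.6 and 16.4 CPM at P5. The other channel subunit, Trpc7, was at 1.34, 0.713 and 0.917 CPM at E18 and at 3.60, 2.65 and 4.17 CPM at P5. Both channel genes stood apart by age, with log2 fold changes of -1.85 (SE 0.159, adjusted p = 0.000178) for Trpc6 and -1.81 (SE 0.294, adjusted p = 0.00192) for Trpc7, near that of Opn4.

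Upstream of the channels, the G protein subunits did not all behave alike. Gna11 was at 63.6 ± 4.85 CPM at E18 and 115 ± 16.9 at P5, with a log2 fold change of -0.85 (SE 0.124, adjusted p = 0.00125). Gna14 rose from 0.369 ± 0.151 to 1.18 ± 0.497 CPM (log2 fold change -1.69, adjusted p = 0.0103). Gnaq, the remaining Gq class subunit on the list, did not pass the test, at 186 ± 5.44 and 179 ± 15.4 CPM (log2 fold change 0.06, SE 0.0909, adjusted p = 0.646). Plcb4, the phospholipase C known from ipRGCs, rose from 136 ± 9.60 to 213 ± 36.7 CPM (log2 fold change -0.64, SE 0.133, adjusted p = 0.00544). All values of this list are of bulk RNA, in which Opn4 was at 6.50 CPM at E18 and 22.6 CPM at P5. The part of them that came from ipRGCs was not tested.

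Among the remaining genes of this list, Adcyap1, which encodes the ipRGC neuropeptide PACAP, rose from 31.7 ± 4.73 to 60.9 ± 16.4 CPM (log2 fold change -0.94, adjusted p = 0.0063). Igf1, a growth factor gene, was at 117, 97.0 and 109 CPM at E18 and at 212, 177 and 223 CPM at P5 (log2 fold change -0.93, adjusted p = 0.000681). Arrb1 encodes an arrestin, a protein that ends receptor signalling, and its log2 fold change was -0.38 (adjusted p = 0.014). That call was lost without E18 replicate 1 (adjusted p = 0.0543), without E18 replicate 3 (0.0604) and when libraries were scaled to equal Rbpms (0.125). Arrb2 (0.13, adjusted p = 0.292), Nmb (0.65, adjusted p = 0.0841) and Rasgrp1 (-0.43, adjusted p = 0.439) were not called. Without P5 replicate 8, Nmb was called as higher at E18 (0.87, adjusted p = 0.0240), and without P5 replicate 9 Rasgrp1 turned to 0.04. With E18 replicate 4 as the only embryonic sample, Trpc6, Trpc7 and Igf1 were still called, and the other 5 were not.

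Other opsins were compared with Opn4. Of the 6 reported here, 4 were tested, with 0 higher at P5 (22.5% of all genes), 2 higher at E18 (20.8% of all genes) and 2 not called. Opn5 (neuropsin), a violet-sensitive opsin, went the opposite way to Opn4, at 3.29, 3.65 and 4.90 CPM at E18 and 0.474, 0.508 and 0.255 CPM at P5. Its log2 fold change was 3.25 (SE 0.316, adjusted p = 0.000271), and every E18 sample lay above every P5 sample. Opn3 (encephalopsin) did not pass the test, at 8.71 ± 1.57 and 10.6 ± 0.894 CPM (log2 fold change -0.29, adjusted p = 0.173). Opn1sw, short-wave cone opsin, was at 1.30 ± 0.587 CPM at E18 and 0.286 ± 0.164 at P5 (log2 fold change 2.19, adjusted p = 0.00741), and with E18 replicate 4 alone the adjusted p was 0.224. The summed level of 11 photoreceptor markers was 13.4, 7.79 and 4.30 CPM in E18 replicates 1, 3 and 4 and 4.27 to 5.09 at P5. Rrh was not called (0.86, adjusted p = 0.234), but it was without E18 replicate 4 (1.29, adjusted p = 0.0260). With that replicate as the only embryonic sample its value was -0.88. Rgr and Opn1mw did not reach the filter.

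Jam2 and Tbr1 are known from the same upward-motion RGCs, and of the pair Jam2 was higher at P5 and Tbr1 was not called. Jam2 (ENSMUSG00000053062.16) was at 31.1, 29.0 and 24.1 CPM at E18 and at 105, 59.4 and 106 CPM at P5. The embryonic samples lay close together, and P5 replicate 8 was well below the other P5 samples yet above all at E18. The means were 28.0 ± 3.60 and 90.1 ± 26.6 CPM (SD, n = 3), 3.21-fold higher at P5 (95% interval 2.29 to 4.52), with a log2 fold change of -1.68 (SE 0.216, adjusted p = 0.000779).

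Tbr1 (ENSMUSG00000035033.15) was at 11.3, 8.91 and 8.56 CPM at E18 and at 10.04, 8.86 and 8.74 CPM at P5. The ages overlapped, and the log2 fold change was 0.06 (SE 0.152, 95% interval -0.29 to 0.40, adjusted p = 0.779). The interval for the ratio of P5 to E18 ran from 0.756 to 1.22, so a change of the size seen for the other T-box genes Eomes and Tbx20 lay outside it. The sign of the small difference was not stable, at -0.07 without E18 replicate 1 and -0.10 with E18 replicate 4 alone. Within each sample, the ratio of Jam2 reads to Tbr1 reads was 2.75, 3.25 and 2.81 at E18 and 10.5, 6.71 and 12.1 at P5. On the log2 scale the ratio was 1.55 ± 0.132 at E18 and 3.24 ± 0.445 at P5, a difference of -1.69 (exact permutation test, p = 0.1, the smallest that 3 samples against 3 allow, adjusted p = 0.2 over the 4 ratios tested).

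Among 6 partners and targets of Tbr1, 2 were higher at P5 (22.5% of all genes), 3 were higher at E18 (20.8% of all genes) and 1 was not called. Sorcs3, a sorting receptor described downstream of Tbr1 in RGCs, was at 3.38, 2.49 and 2.92 CPM at E18 and at 27.6, 21.5 and 40.0 CPM at P5. It had a log2 fold change of -3.35 (SE 0.243, adjusted p = 9.81e-05), larger in size than that of any of the 8 genes. Grin2b, a glutamate receptor subunit, rose from 32.1 ± 1.12 to 49.7 ± 7.28 CPM (log2 fold change -0.63, adjusted p = 0.00398). Bcl11a, a transcription factor partner of Tbr1, fell from 33.9 ± 2.90 to 16.6 ± 0.476 CPM (log2 fold change 1.03, adjusted p = 0.000336). Reln (0.35, adjusted p = 0.0259), which encodes the secreted protein reelin, and Auts2 (0.70, adjusted p = 0.0167) were higher at E18, but less firmly. The call of Reln was lost without E18 replicate 3 or 4 or P5 replicate 6 or 9 (adjusted p = 0.0559 to 0.0896), and that of Auts2 without E18 replicate 3 or P5 replicate 6 or 9 (0.0588 to 0.0706). Cask, a scaffold protein that binds Tbr1, was not called (-0.19, adjusted p = 0.0988), but it was without P5 replicate 8 (-0.25, adjusted p = 0.0304). Auts2 and Grin2b were not called with E18 replicate 4 alone (adjusted p = 0.289 and 0.162).

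Both relatives of Jam2 were tested. F11r, which encodes JAM-A, was at 0.684 ± 0.0976 CPM at E18 and 1.82 ± 0.235 at P5 (log2 fold change -1.41, adjusted p = 0.00242). Jam3 encodes JAM-C, a binding partner of JAM-B, the product of Jam2. It was lower at P5, at 24.8 ± 2.12 and 17.3 ± 3.96 CPM (log2 fold change 0.52, adjusted p = 0.0334), and this call was lost without E18 replicate 1 or 3 or P5 replicate 6 or 9 (adjusted p = 0.0781 to 0.110). Neither was called with E18 replicate 4 alone (adjusted p = 0.102 for F11r and 0.369 for Jam3). JAM genes are also expressed by endothelial cells, and the sum of 8 endothelial markers was 16.9 to 72.2 CPM at E18 and 12.4 to 17.3 at P5. Of the 8 markers, 5 were tested, with 2 higher at P5 (22.5% of all genes), 1 higher at E18 (20.8% of all genes) and 2 not called. Pecam1 rose from 0.686 ± 0.181 to 2.41 ± 0.293 CPM (log2 fold change -1.81, adjusted p = 0.00123) and Tek from 0.830 ± 0.250 to 2.88 ± 0.700 CPM (-1.80, adjusted p = 0.00239), in the direction of Jam2 and F11r. Kdr, which made up most of the sum at E18, fell (2.68, adjusted p = 0.00545). It was uneven in the embryo, at 69.5, 62.9 and 14.1 CPM in E18 replicates 1, 3 and 4, and was at 6.70, 11.3 and 4.79 CPM at P5. Esam (-0.61, adjusted p = 0.0600) and Cldn5 (0.52, adjusted p = 0.637) were not called. Cdh5, Tie1 and Emcn did not reach the filter, with a highest value of 0.0638 CPM. The part of endothelial RNA in the values of the JAM genes was not tested.

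Satb1 rose less than the genes above, but with little spread. Satb1 (ENSMUSG00000023927.15) was at 104, 96.5 and 102 CPM at E18 and at 159, 158 and 129 CPM at P5. Every P5 sample was above every E18 sample, with replicate 9 the lowest at P5. The means were 100.9 ± 4.03 and 149 ± 17.3 CPM (SD, n = 3), 1.47-fold higher at P5 (95% interval 1.25 to 1.74), and the log2 fold change was -0.56 (SE 0.104, adjusted p = 0.0036). With E18 replicate 4 as the only embryonic sample the value was -0.53 and the adjusted p was 0.126.

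Of 11 genes of direction-selective RGCs and Satb1 partners, 10 were tested, with 4 higher at P5, 1 higher at E18 and 5 not called, so that the share called was near the 43.4% of all genes. Cartpt, the peptide gene of ON-OFF direction-selective RGCs, rose from 9.50 ± 3.58 to 35.7 ± 13.9 CPM (log2 fold change -1.91, SE 0.331, adjusted p = 0.00258). Col25a1, a membrane collagen, rose from 14.0 ± 0.876 to 38.9 ± 6.04 CPM (log2 fold change -1.48, adjusted p = 0.000209). Cdh6, a cadherin of these cells, rose from 19.7 ± 4.07 to 44.2 ± 1.87 CPM (log2 fold change -1.16, adjusted p = 0.000798). Trhr, which encodes the thyrotropin-releasing hormone receptor and marks posterior-tuned cells, was counted at 5, 2 and 1 reads at E18 and at 1637, 1365 and 1850 reads at P5 (adjusted p = 1.12e-05). Cntn5, an adhesion molecule regulated by Satb1, was the 1 called gene that fell, from 86.6 ± 10.6 to 62.3 ± 2.99 CPM (log2 fold change 0.48, SE 0.108, adjusted p = 0.00834). Its partner Cntnap4 was not called (-0.20, adjusted p = 0.237). Mmp17, another marker of this class, was at 18.36, 31.5 and 4.21 CPM at E18 and 18.2 to 23.7 CPM at P5. It was not called over all samples (-0.26, adjusted p = 0.727) but was with E18 replicate 4 alone (-2.34, adjusted p = 0.00157). Fstl4 (0.20, adjusted p = 0.311), Calb1 (0.41, adjusted p = 0.235) and Drd4 (0.76, adjusted p = 0.128) were not called, and Hoxd10 had no read in any sample.

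**Figure D3:**
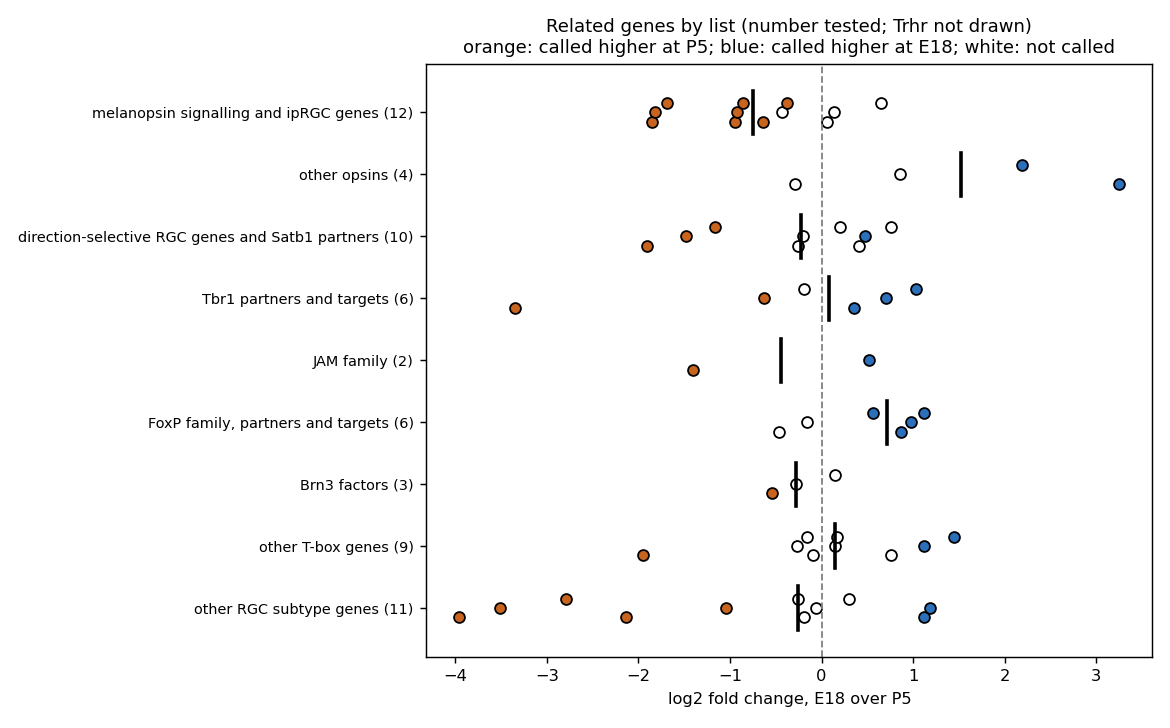
Log2 fold change of E18 over P5 (horizontal axis) for the tested genes of the 9 related lists, with the number tested in brackets, orange for higher at P5, blue for higher at E18 and white for not called; the black bar is the list's median and the dashed line the median of all genes. Trhr, with 8 reads in all at E18, is left off the plot but counted in its list and median. The median of the melanopsin list lies at -0.75 and that of the FoxP list at 0.71.

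Foxp1 and Foxp2 did not pass the test. Foxp1 (ENSMUSG00000030067.17) was at 60.4, 43.6 and 44.9 CPM at E18 and at 56.0, 66.4 and 48.7 CPM at P5. The ages overlapped, and the log2 fold change was -0.20 (SE 0.158, 95% interval -0.56 to 0.16, adjusted p = 0.328). Foxp2 (ENSMUSG00000029563.16) was at 89.8, 80.2 and 93.0 CPM at E18 and at 95.8, 68.6 and 78.6 CPM at P5. Its ages overlapped as well, with a log2 fold change of 0.11 (SE 0.130, 95% interval -0.18 to 0.41, adjusted p = 0.503), which was -0.01 without P5 replicate 8. The ratio of P5 to E18 had an interval of 0.897 to 1.47 for Foxp1 and of 0.753 to 1.13 for Foxp2, so a 2-fold change lay outside both. Their read ratio, Foxp2 to Foxp1, was 1.49, 1.84 and 2.07 at E18 and 1.71, 1.03 and 1.61 at P5, and the log2 ratio differed by 0.33 (exact permutation test, p = 0.4, adjusted p = 0.5).

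Genes around the FoxP factors were examined as well. Of 7 relatives, partners and targets, 6 were tested, with 0 higher at P5, 4 higher at E18 and 2 not called, against 22.5% of all genes higher at P5 and 20.8% higher at E18. The corepressor genes Ctbp1 and Ctbp2 were at 282 ± 5.21 and 87.5 ± 7.19 CPM at E18 and at 192 ± 13.0 and 44.5 ± 9.47 CPM at P5 (log2 fold changes 0.56 and 0.98, adjusted p = 0.00148 and 0.00162). Gatad2b, a subunit of the NuRD complex to which FoxP factors bind, fell from 15.6 ± 2.32 to 8.54 ± 1.95 CPM (log2 fold change 0.87, adjusted p = 0.00677). Foxp3 was low throughout and fell from 2.32 ± 0.151 to 1.06 ± 0.281 CPM (log2 fold change 1.12, adjusted p = 0.00734). Foxp4, a relative of Foxp1 and Foxp2, was not called (-0.46, adjusted p = 0.0737). DESeq2 did call it (adjusted p = 0.0434), and so did the fit without E18 replicate 4 (-0.64, adjusted p = 0.0310). Cntnap2, a target of Foxp2, was not called (-0.16, adjusted p = 0.151), and Srpx2 did not reach the filter. With E18 replicate 4 alone, Ctbp2 was called, and Ctbp1 (0.54, adjusted p = 0.0767), Gatad2b (0.63, adjusted p = 0.205) and Foxp3 (1.11, adjusted p = 0.116) kept their direction but not their call.

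Of the 3 Brn3 factors, which act broadly in RGCs, 1 was higher at P5 (22.5% of all genes) and 2 were not called. Pou4f1 (Brn3a) was at 639 ± 37.4 and 577 ± 120 CPM (log2 fold change 0.15, adjusted p = 0.417), and Pou4f2 (Brn3b) at 181 ± 7.62 and 220 ± 35.9 CPM (-0.28, adjusted p = 0.0897). Pou4f3 (Brn3c) was higher at P5, at 29.7 ± 3.76 and 43.2 ± 6.63 CPM (-0.54, adjusted p = 0.0139). These calls turned on single samples, since Pou4f3 lost its call without E18 replicate 1 (adjusted p = 0.0531) or 3 (0.0660) and with E18 replicate 4 alone (-0.34, adjusted p = 0.401), and Pou4f1 was called without P5 replicate 8 (0.31, adjusted p = 0.0225) and Pou4f2 without P5 replicate 9 (-0.40, adjusted p = 0.0186).

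The other T-box genes were compared with Eomes and Tbx20. Of 14 others, 9 were tested, with 1 higher at P5 (22.5% of all genes), 2 higher at E18 (20.8% of all genes) and 6 not called, and a median log2 fold change of 0.15. Tbx3, a factor of the early eye, fell from 10.1, 8.16 and 8.89 CPM at E18 to 3.58, 3.43 and 2.90 CPM at P5 (log2 fold change 1.45, SE 0.165, adjusted p = 0.000474). Tbx2 was at 55.7 ± 4.65 and 59.4 ± 15.9 CPM and was not called (-0.09, adjusted p = 0.692), nor was Tbx5 (-0.16, adjusted p = 0.635). Both are factors of dorsal retina. Tbx6 was at 1.19 ± 0.120 and 0.544 ± 0.170 CPM (log2 fold change 1.12, adjusted p = 0.0155), a call lost without E18 replicate 3 (adjusted p = 0.0651). Tbx21, the member closest to Eomes in sequence along with Tbr1, was scarce, with 13, 10 and 16 reads at E18 and 27, 71 and 56 reads at P5 (log2 fold change -1.95, SE 0.438, adjusted p = 0.008). With E18 replicate 4 alone, Tbx21 and Tbx6 were not called (adjusted p = 0.188 and 0.191). Mga (0.17, adjusted p = 0.224), Tbx10, Tbx15 and Tbx22 were not called either.

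Genes of other RGC subtypes gave a mixed picture. Of 11, 5 were higher at P5 (22.5% of all genes), 2 higher at E18 (20.8% of all genes) and 4 not called. Neurod2, a helix-loop-helix factor, was at 1.33, 1.18 and 0.928 CPM at E18 and 16.6, 22.9 and 13.8 CPM at P5 (log2 fold change -3.96, SE 0.240, adjusted p = 6.12e-05). Penk, an opioid peptide gene, rose from 0.707 ± 0.281 to 4.88 ± 2.77 CPM (-2.79, adjusted p = 0.00243). A pair of genes known from alpha-type RGCs was scarce at both ages. Spp1 (osteopontin) had 2, 6 and 10 reads at E18 and 47, 37 and 121 at P5 (adjusted p = 0.00315), and Kcng4 had 9, 14 and 4 reads at E18 and 45, 35 and 36 at P5 (adjusted p = 0.00482). Spp1 was not called with E18 replicate 4 alone (adjusted p = 0.0769). Kcnip2, a potassium channel partner, was called (-1.04, adjusted p = 0.025), but not without E18 replicate 1 or 3 or P5 replicate 6 or 9 (adjusted p = 0.0525 to 0.0909) and not with E18 replicate 4 alone (-0.90, adjusted p = 0.243). The zinc finger factors Bnc2 (92.6 ± 20.1 and 42.6 ± 7.21 CPM, log2 fold change 1.12, adjusted p = 0.00157) and Zic1 (81.9 ± 33.9 and 36.0 ± 1.87 CPM, 1.18, adjusted p = 0.00571) fell. Irx3 (-0.25), Irx4 (0.30), Tfap2d (-0.20) and Fes (-0.06) were not called. Irx3 was called without P5 replicate 6 (-0.46, adjusted p = 0.0428). Irx4 was called without E18 replicate 1 (0.40, adjusted p = 0.0412) and when libraries were scaled to equal Rbpms (0.40, adjusted p = 0.0367). Over the 9 lists, 37 of 63 tested genes were called, or 58.7%, against 43.4% of all genes. This number was 20 with E18 replicate 4 alone.

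To compare the 8 genes with each other, levels were divided by the summed length of their exons, from 2869 bases for Opn4 to 9763 for Satb1. At E18 the order by CPM per kilobase was Foxp2 (12.4 ± 0.945), Satb1 (10.3 ± 0.413), Foxp1 (6.66 ± 1.26), Jam2 (6.42 ± 0.823), Eomes (3.57 ± 1.52), Tbr1 (2.41 ± 0.376), Opn4 (2.26 ± 0.741) and Tbx20 (0.645 ± 0.341). Neighbours whose samples overlapped were Foxp1 with Jam2, Eomes with Tbr1, and Tbr1 with Opn4. At P5 the order was Jam2 (20.6 ± 6.10), Satb1 (15.2 ± 1.78), Eomes (14.8 ± 1.75), Foxp2 (11.5 ± 1.94), Opn4 (7.89 ± 2.27), Foxp1 (7.66 ± 1.20), Tbx20 (3.00 ± 1.63) and Tbr1 (2.32 ± 0.181). Here Jam2 overlapped with Satb1, Satb1 with Eomes, Foxp2 with Opn4, Opn4 with Foxp1, and Tbx20 with Tbr1. Jam2 thus moved from the fourth place to the first, and Tbr1 from the sixth to the last, without a called change of its own.

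**Figure D4:**
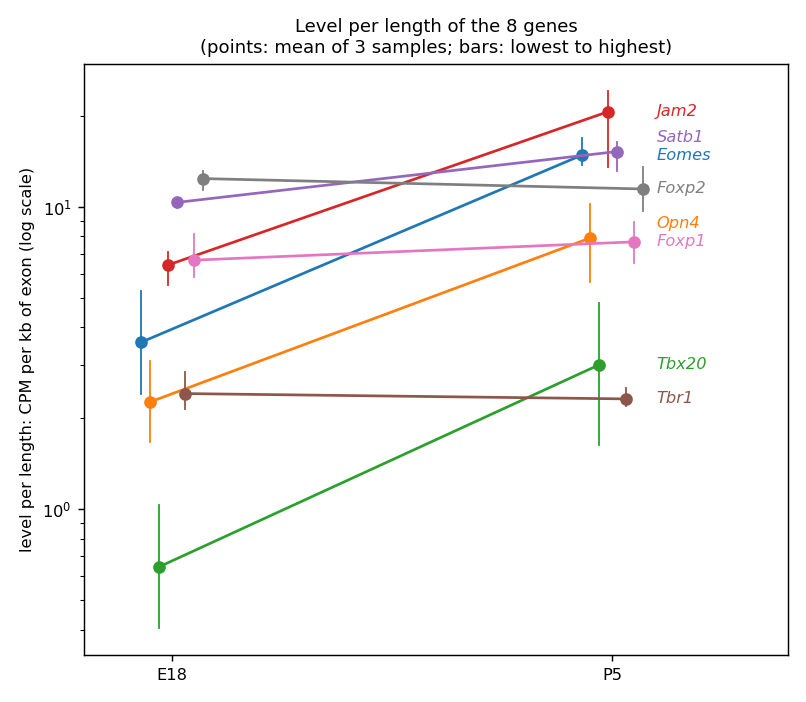
Mean level per length of the 8 genes at E18 and P5, in CPM per kilobase of exon on a log axis, with vertical bars from the lowest to the highest of the 3 samples. The lines of Eomes, Opn4, Tbx20 and Jam2 climb from E18 to P5 and that of Satb1 climbs less, while those of Foxp1, Foxp2 and Tbr1 run nearly level.

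The balance of melanopsin and its regulator was compared within samples, where library scaling cancels. Opn4 reads stood to Eomes reads as 0.455, 0.427 and 0.660 at E18 and as 0.442, 0.318 and 0.470 at P5. The log2 ratio was -0.99 ± 0.340 at E18 and -1.31 ± 0.303 at P5, a difference of 0.32 that was close to the SD at either age (exact permutation test, p = 0.5, adjusted p = 0.5). The ages overlapped for this ratio and for Foxp2 to Foxp1, and were apart for Jam2 to Tbr1.

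**Figure D5:**
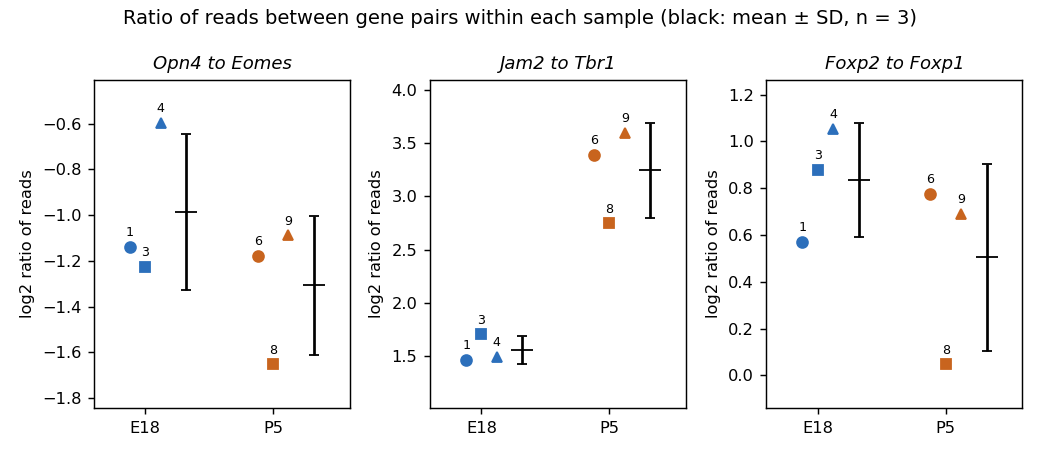
Log2 ratio of reads between 3 pairs of genes in each sample (vertical axes differ and do not start at 0), with the replicate number above each point and mean ± SD in black (n = 3). The ages are apart for Jam2 to Tbr1, which is higher at P5, and overlap for the other pairs.

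Genes with the most similar pattern to each of the 8 were found by Pearson's r of log2(CPM + 0.5) over the 6 samples, leaving out genes whose mean was under 1 CPM. With 6 samples in 2 ages r depends strongly on the step between the ages and does not depend on its size. For Eomes the closest were AA474331 (0.999), Kcnk1 (0.996) and Gpr63 (0.995), although AA474331 itself ran only from 2.19 to 3.69 CPM. For Opn4 they were Gdf6 (1.000), Ttyh1 (0.999) and Lsp1 (0.999), and for Tbx20 Bhlhe41 (0.999), Klc3 (0.994) and Fam195a (0.993). Jam2 was closest to Cd47 (0.998), Nqo2 (0.998) and Pex7 (0.997), and Satb1 to Gm10767 (0.997), Tpp2 (0.995) and Fancc (0.991). For the 3 genes without a called change the best values were lower, with Nuf2 (0.980), Tbc1d31 (0.979) and Uaca (0.961) for Tbr1, Naa50 (0.970), Traf3ip2 (0.956) and 2310057M21Rik (0.953) for Foxp1, and Scpep1 (0.992), Syn3 (0.978) and Ssna1 (0.976) for Foxp2. Among the 8 themselves r was 0.989 between Opn4 and Tbx20, 0.967 between Eomes and Opn4, and 0.943 between Eomes and Tbx20. Between Eomes and Tbr1 it was 0.068. Jam2 had 0.962 with Opn4 and 0.940 with both Eomes and Tbx20. Satb1 had 0.874 with Eomes, 0.823 with Opn4 and 0.734 with Tbx20, so high values were not confined to the ipRGC genes.

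In the annotation, exons of other genes overlap those of 4 of the 8, and none of these other genes is in the count table. Eomes shares bases with Gm33460 and Opn4 with Gm49012, both annotated antisense. Satb1 shares bases with Gm36931 and Gm6934, and Foxp1 with Gm20696 and Gm49348. Whether the counting used strand is not stated. Reads of a partner on the opposite strand could thus not be told apart from those of Eomes, Opn4 or Satb1 (Gm6934). Gm36931 lies on the strand of Satb1, and Gm20696 and Gm49348 on that of Foxp1, so strand would not separate their reads.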

How the data were processed

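RGCs of 3 E18 and 3 P5 samples, grouped by their labels, were sequenced from both ends by the authors once ribosomal RNA had been depleted. They used STAR for alignment to mm10 and HT-seq for counting over RefSeq genes. The label for the molecule reads polyA RNA, unlike the protocol. One E18 column whose name also carries the numbers 2 and 5 was taken as replicate 1 and may be a pool. The authors deposited raw counts per gene, which were used. The deposited normalized counts (a signal scaled for library size), the authors' log2 fold changes, their p-values with false discovery rates, and a deposited rank score were not used. Strand setting and treatment of multiply mapping reads are not given in the sources used here.

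The model was edgeR's quasi-likelihood fit (version 4.0.16, R 4.3.3) with TMM scaling. It covered 16449 of 24060 genes, those that passed filterByExpr, with Benjamini-Hochberg adjustment over all of them and a threshold of 0.05. CPM used TMM-scaled library sizes summed over tested genes. The standard errors and 95% intervals come from the fit. Read ratios were compared by exact permutation tests, both directions counted, with p-values adjusted over 4 ratios. Exon lengths came from GENCODE vM21, and promoters from RefSeq (GRCm38.p6). The depth of 81213639 to 114512853 reads leaves the spread between samples as the main error. Samples of an age were not repeats of the same library. Chi-square values over genes were 30.5 to 49.0 per degree of freedom between E18 samples and 71.9 to 141 between P5 samples. The pairs with P5 replicate 8 gave 97.8 and 141. The fits were tested on simulated data. Alternatives were DESeq2 1.42.0, edgeR's exact test, RLE and upper-quartile scaling, scaling to equal Rbpms, other filters, and leaving out each sample. The genes named are the 8 genes, those of the related lists, the 3 genes most like each of the 8, Thy1 and Rbpms. The 8 genes, the lists, the tests and the letters searched in promoters were chosen with earlier results of these data known. Some genes of the lists and 1 of the ratios are not reported here.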

Additional observations from a re-analysis of the deposited data

How the results depend on the processing

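The number of the 8 genes called was 5 under every other test, scaling and filter and without any single sample, and 4 with E18 replicate 4 as the only embryonic sample, a setting chosen after seeing the data, where Satb1 had a log2 fold change of -0.53 (adjusted p = 0.126). Over 14 alternatives the highest adjusted p was 0.00586 for Eomes, 0.00967 for Opn4, 0.0204 for Tbx20 and 0.00672 for Jam2, and that of Satb1 ran from 2.82e-05 to 0.126. Tbr1 turned to -0.072 without E18 replicate 1 (adjusted p = 0.772) and to -0.10 with E18 replicate 4 alone (0.863), and Foxp2 turned to -0.010 without P5 replicate 8 (0.945); leaving out each sample gave ranges of -0.07 to 0.13 and -0.01 to 0.24, and the cause was not tested. The number of all genes called ranged from 4575 (without E18 replicate 3) to 8796 (without P5 replicate 8) and was 1633 with E18 replicate 4 alone, a fit with fewer samples. The called genes of the related lists numbered 37, between 30 and 40 on leaving out each sample, and 20 with E18 replicate 4 alone. Scaling to equal Rbpms moved the median of all genes from 0.0047 to 0.11 and the calls from 3426 higher at E18 and 3709 higher at P5 (52.0% of calls) to 4007 and 2564 (39.0%). The read ratios kept their direction in all 28 alternatives. No paired analysis was possible because the groups share no replicate number. Tbx21, Spp1 and Kcng4 had few reads at E18, and depth limits what can be said of them.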
